A study of Rattus norvegicus with 9 samples.

Results

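The genes described here are the secreted Wnt proteins, the receptors that bind them, the secreted proteins that block them and the first cytoplasmic and nuclear relays of the signal. Their 44 members were found by name on a whole-genome rat array, as symbols that begin with Wnt and a digit, Fzd, Frzb, Sfrp, Dkk, Wif1, Axin, Lef1, Tcf7, Rspo or Dvl, or that read Lrp5 or Lrp6. They are 44 of 35341 names on the array and are carried by 58 probes. Sertoli cells, which line the seminiferous tubule and support the germ cells, had been isolated from rats aged 5, 12 or 60 days and measured on 3 one-colour arrays per age, 9 in all. Every group shared the same handling, which was 4 days of culture in defined growth factor medium followed by pulses of 50 ng/ml oFSH and 1e-07 M testosterone over 11 h, and cultures without hormone were not analysed here. Strain and genotype are not stated in the labels, nor whether the 3 samples of an age came from separate animals, so p-values measure only the spread between these samples. Arrays with the same replicate number shared a slide, and each age kept 1 place on every slide, so that age and place cannot be told apart.

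Wnt proteins are lipid-modified secreted ligands that bind Frizzled receptors, and for the β-catenin branch the co-receptors Lrp5 and Lrp6 as well. Dishevelled proteins relay the signal, Axin holds the complex that degrades β-catenin, and β-catenin spared from it acts through the factors of the TCF/LEF family. Secreted Frizzled-related proteins and Wif1 bind the ligands, Dickkopf proteins other than Dkk3 bind the co-receptors, and R-spondins keep the receptors at the cell surface. In the mouse, Wnt4 and Rspo1 are known for their part in forming the ovary, and forced β-catenin activity in Sertoli cells is known to disturb their maturation.

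The probes on which the main results turn are shown as deposited, 60 letters each, in the 5′ to 3′ direction and with positions in the rn4 build. They are the Wnt4 and Wnt5a probes, which carry the rises, the Fzd1, Sfrp2 and Frzb probes, which carry large falls, and both probes of Wnt2, which gave different results.
Wnt4, chr5:156082786-156082845, plus strand: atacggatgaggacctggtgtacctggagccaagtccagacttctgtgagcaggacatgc
Wnt5a, chr16:3799337-3799396, plus strand: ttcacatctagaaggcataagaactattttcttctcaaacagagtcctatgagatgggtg
Fzd1, chr4:25998371-25998430, plus strand: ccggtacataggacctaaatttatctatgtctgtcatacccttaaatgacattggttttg
Sfrp2, chr2:175486729-175486788, plus strand: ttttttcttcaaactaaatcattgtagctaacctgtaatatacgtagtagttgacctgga
Frzb, chr3:63361004-63374245, minus strand: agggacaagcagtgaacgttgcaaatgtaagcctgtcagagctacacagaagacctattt
Wnt2, chr4:43687315-43689474, minus strand: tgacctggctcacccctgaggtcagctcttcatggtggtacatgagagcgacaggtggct
Wnt2, chr4:43682205-43682264, minus strand: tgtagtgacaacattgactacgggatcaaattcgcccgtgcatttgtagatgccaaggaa
The first Wnt2 probe and the Frzb probe cover more of the genome than their own 60 letters. Exons and untranslated regions are not stated, because no annotation of that build was used.

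Levels are log2 processed signals relative to the 75th percentile of their array, so that 0 marks the 75th percentile, and the 3 values of an age are in the order of replicates 1, 2 and 3. A level belongs to its own probe and is not compared between genes. A probe was tested if some age had 2 or 3 arrays on which it was well above background, and the brightest probe stood for a gene. Of the 44 members, 31 were tested, 17 of these were well above background on all 9 arrays, and none was saturated. The words rose, fell and called are used where limma's adjusted p over all 22438 genes was below 0.05. Where no array of an age was well above background, a fold is given as a bound. It sets the mean of the brighter age against the mean of the lowest reliable signals of the dimmer arrays and is written as at least N-fold.

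At 12 against 5 days, 8 of the 31 members were called, beside 12.4% of all genes. Wnt4 rose, and Dkk4, Frzb, Fzd1, Lef1, Sfrp2, Sfrp4 and Wnt5b fell, where 6.15% of all genes rose and 6.3% fell. At 60 against 12 days 12 members were called, beside 25.4% of all genes. Lef1, Wif1, Wnt4 and Wnt5a rose, and Dkk3, Frzb, Fzd1, Fzd2, Fzd7, Fzd9, Sfrp2 and Wnt10a fell, where 12.2% of all genes rose and 13.1% fell. For Frzb and Sfrp2 no 12-day or 60-day array was well above background, so the size of neither fall was measured. Over the whole span, at 60 against 5 days, 15 members were called, beside 35.4% of all genes. Wif1, Wnt4 and Wnt5a rose, and Dkk3, Dkk4, Frzb, Fzd1, Fzd2, Fzd7, Lrp6, Sfrp1, Sfrp2, Sfrp4, Tcf7 and Wnt5b fell, where 17.3% of all genes rose and 18.1% fell. The median log2 change of the 31 members was -0.53, -0.54 and -0.57 in the 3 comparisons in that order, against 0.05, -0.16 and -0.09 over all genes. On the spike-in scale described next the members' medians were -1.85, 0.42 and -0.93, so the sign turned at 60 against 12 days, and among the 17 members well above background on all 9 arrays they were -0.57, -0.54 and -0.27. The moderated F-test called 17 of the 31 members, beside 36.7% of all genes, and Tcf7 was called in a pairwise comparison without passing it. Several members passed the filter only through the 5-day arrays on which they were bright, so these counts describe the members and support nothing further.

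**Figure D1:**
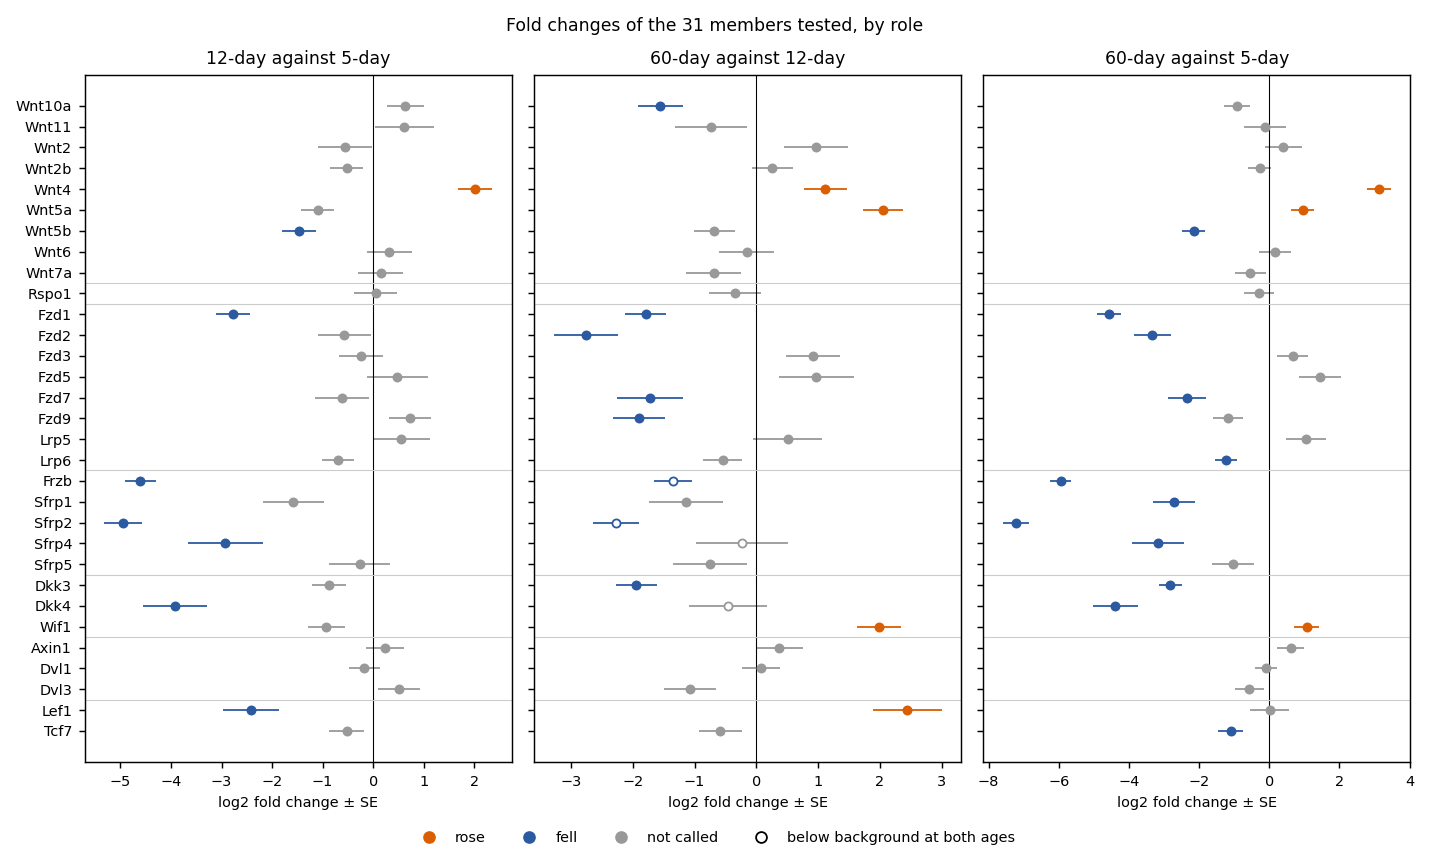
Log2 fold change with its standard error for the 31 members tested, in 3 panels for 12 against 5, 60 against 12 and 60 against 5 days, with genes grouped by role from ligands at the top to TCF/LEF factors at the bottom. Orange points rose, blue points fell and grey points were not called. Open points were below background at both ages. Most blue points belong to receptors and to Sfrp and Dkk genes, while Wnt4 lies to the right in every panel.

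The scale of the arrays bears on each direction. On the main scale the 6 unsaturated spike-in controls, RNAs added to the samples for labelling, differed by 1.32 at 12 against 5 days (2.19, 0.01 and 1.76 on slides 1, 2 and 3), by -0.96 at 60 against 12 days (-1.06, -0.29 and -1.54) and by 0.36 at 60 against 5 days (1.14, -0.27 and 0.22). Scaling to them moved the median log2 change of all genes to -1.27, 0.80 and -0.45 in the same order. The changes reported here are therefore relative to the bulk of the genes of an array. No called member turned its direction on the spike-in scale or under any other setting tried. On the spike-in scale Wnt4 lost its call at 12 against 5 days (adjusted p = 0.523), as did all 8 members that fell at 60 against 12 days (adjusted p from 0.177 to 0.832) together with the rise of Wnt4 there (0.100). At 60 against 5 days Wif1 (0.684), Wnt5a (0.745), Lrp6 (0.231) and Tcf7 (0.287) lost theirs. Normexp background correction, run on replicates 1 and 3, ended the calls of Dkk4, Frzb, Lef1 and Sfrp4 at 12 against 5 days (adjusted p from 0.0867 to 0.951). It also ended those of Frzb, Fzd7, Fzd9, Lef1, Sfrp2, Wif1 and Wnt4 at 60 against 12 days (0.0803 to 0.608) and of Lrp6, Sfrp1, Sfrp4, Tcf7, Wif1 and Wnt5a at 60 against 5 days (0.0517 to 0.504). The background filter was also left out, with the brightest probe still standing for a gene. This ended the calls of Wnt4 (0.0684) and Fzd7 (0.0526) at 60 against 12 days. Those of Wif1 (0.0703), Wnt5a (0.0815) and Tcf7 (0.0539) at 60 against 5 days ended as well. Fitting only the 6 arrays of the ages compared ended the same calls of Wnt4 (0.0632), Wif1 (0.0650), Wnt5a (0.0635) and Tcf7 (0.0506).

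The labelled cell type was set against marker lists. Of 16 Sertoli markers, 12 rose and 0 fell at 12 against 5 days, 6 rose and 1 fell at 60 against 12 days, and 12 rose and 0 fell at 60 against 5 days. Over all genes 6.15%, 12.2% and 17.3% rose and 6.3%, 13.1% and 18.1% fell in these comparisons, in that order. On the spike-in scale 0, 6 and 8 of the Sertoli markers rose. The median level of that list lay between -0.95 and -0.59 on the 5-day arrays, between 0.85 and 1.29 at 12 days and between 2.88 and 3.34 at 60 days, and 1 of its genes was not well above background on any 5-day array. Markers of other cells moved too. Of 13 spermatocyte markers, 9 rose at 12 against 5 days and 13 at 60 against 5 days, and 10, 2 and 0 of them had no array well above background at 5, 12 and 60 days. Of 15 spermatid markers, 14 rose at 60 against 12 days and 0 were called at 12 against 5 days, where 0 also passed on the spike-in scale. At 60 days none of the 15 was without an array well above background, against 9 at 12 days and 11 at 5 days. Germ cell markers that passed the filter only through later arrays could only rise, so these counts describe the lists and support nothing further. Of 13 peritubular and fibroblast markers, 5 fell at 12 against 5 days, 7 at 60 against 12 days and 10 at 60 against 5 days, and none rose. Without replicate 2 these counts were 3, 4 and 7. The log2 of their summed signal ran between 9.10 and 10.03 on the 5-day arrays, between 8.11 and 8.70 at 12 days and between 5.42 and 7.87 at 60 days, and 0, 1 and 1 of the 13 were not well above background at those ages. In such bulk cultures, fewer cells of a type and less RNA per cell cannot be told apart.

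**Figure D2:**
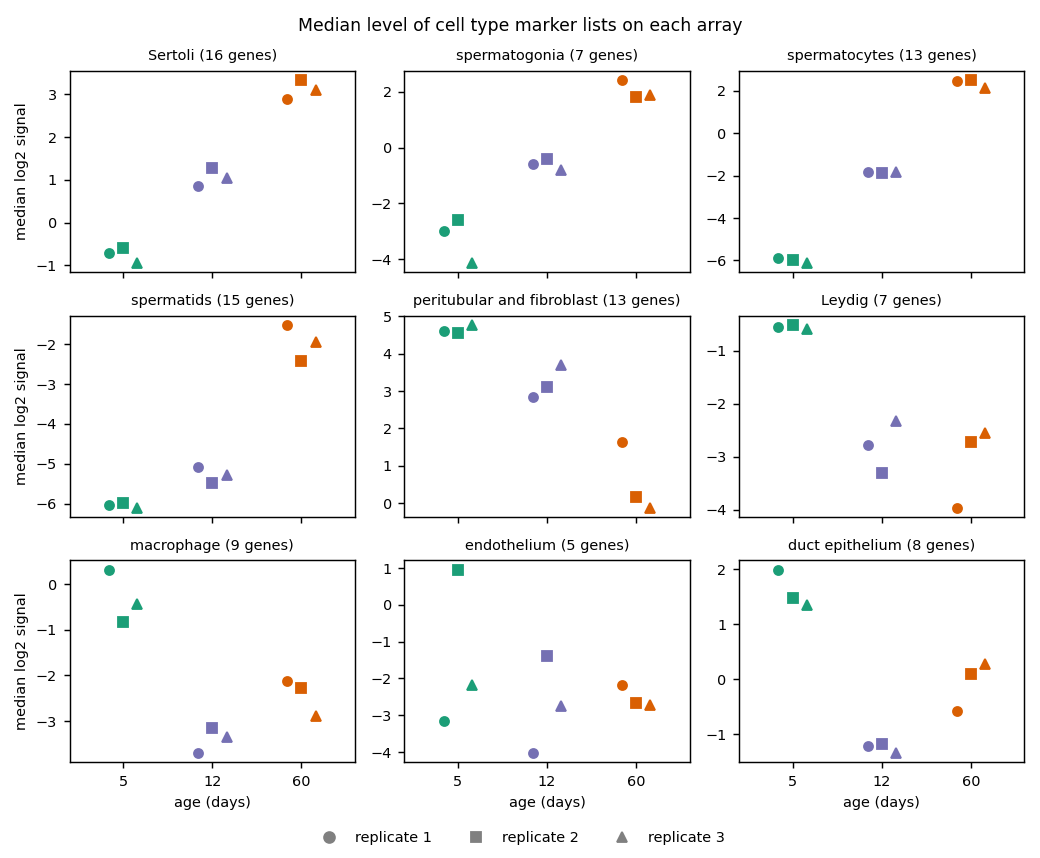
Median log2 signal relative to the 75th percentile for 9 lists of cell type markers on each array, with age in days on the x axis and symbols for the 3 replicates. Sertoli, spermatogonium, spermatocyte and spermatid lists lie highest at 60 days, the peritubular and fibroblast list lies lowest there, and the macrophage and duct epithelium lists lie lowest at 12 days.

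Among the 9 tested ligands, Wnt4 stood out by rising at each step of age. Its level was 2.34, 2.41 and 1.97 at 5 days, 4.69, 4.02 and 4.05 at 12 days, and 5.57, 5.61 and 4.93 at 60 days. The arrays of the 3 ages did not overlap, and the rise held on each of the 3 slides in all comparisons. It amounted to 2.01 ± 0.34 (log2, SE) at 12 against 5 days (adjusted p = 0.00324), to 1.11 ± 0.34 at 60 against 12 days (0.0362) and to 3.13 ± 0.34 at 60 against 5 days (4.18e-05), an 8.74-fold higher level. The whole-span rise passed in every setting tried. The first step was lost without replicate 2 (adjusted p = 0.0538). The second step was lost when replicate number 1, 2 or 3 was left out, and when 60-day replicate 1, any single age of replicate 2, or 12-day replicate 3 was (0.0556 to 0.318). Sertoli markers rose in the counts given above (12, 6 and 12 of 16), as did spermatocyte markers (9, 12 and 13 of 13), and the part of either in the Wnt4 result was not tested.

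Wnt5a, a ligand of the branches that do not need β-catenin and one known in the mouse for supporting spermatogonial stem cells, was lowest at 12 days. It measured -0.83, -0.70 and -1.23 at 5 days, -2.02, -1.74 and -2.29 at 12 days, and -0.32, 0.22 and 0.20 at 60 days. All 60-day arrays lay above all others, and all 12-day arrays lay below all others. It rose by 2.05 ± 0.33 at 60 against 12 days (adjusted p = 0.000924), a call kept in every setting tried. The difference at 12 against 5 days, -1.10 ± 0.33, missed the threshold (adjusted p = 0.0513). It passed with the replicate number as a block (0.0287), with quantile normalization (0.0396) and with the array median as scale (0.0496). Averaged probes (0.0489), probes well above background on all 9 arrays (0.0409) and leaving out 60-day replicate 1 (0.0427) also let it pass. The smaller rise of 0.95 ± 0.33 at 60 against 5 days (adjusted p = 0.0420) was lost when any replicate number was left out, and when any 5-day array, 12-day replicate 1, or 60-day replicate 2 or 3 was (0.0588 to 0.244), and it was also lost with the array median as scale (0.0537).

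Its close relative Wnt5b went the other way. Wnt5b lay at 2.90, 2.96 and 2.96 at 5 days, at 1.67, 1.49 and 1.26 at 12 days, and at 0.29, 1.27 and 0.80 at 60 days. The 5-day arrays were clear of all others, while a 60-day array (1.27) lay just above the lowest 12-day array (1.26). It fell by 2.15 at 60 against 5 days (-2.15 ± 0.33, adjusted p = 0.00045) in every setting tried. The fall at 12 against 5 days (-1.47 ± 0.33, adjusted p = 0.0150) was lost when replicate number 2 or 3 was left out, and when 5-day replicate 2 or 12-day replicate 3 was (0.0524 to 0.152). It was also lost when the probes of a gene were averaged (0.0986), and the dimmer Wnt5b probe was not called in any comparison.

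Wnt10a, a ligand known for its part in tooth and skin appendage development, peaked weakly at 12 days. Its levels were -0.46, -0.92 and -0.25 at 5 days, 0.37, -0.39 and 0.29 at 12 days, and -0.998, -1.78 and -1.60 at 60 days. The 60-day arrays lay below all others, and the 12-day and 5-day arrays overlapped. It fell at 60 against 12 days (-1.55 ± 0.37, adjusted p = 0.00975), which did not pass when replicate number 2 (0.0614) or 3 (0.104) was left out. At 60 against 5 days it differed by -0.92 ± 0.37 and passed only with the replicate block (adjusted p = 0.0758 without it and 0.0256 with it) or with 60-day replicate 1 left out (0.0431). The other 5 tested ligands, Wnt11, Wnt2, Wnt2b, Wnt6 and Wnt7a, were called in no comparison by the probe that stood for them. Their log2 differences ran from -0.73 to 0.96. Wnt11 passed at 60 against 12 days on leaving out 12-day replicate 2 (-1.46, adjusted p = 0.0449).

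**Figure D3:**
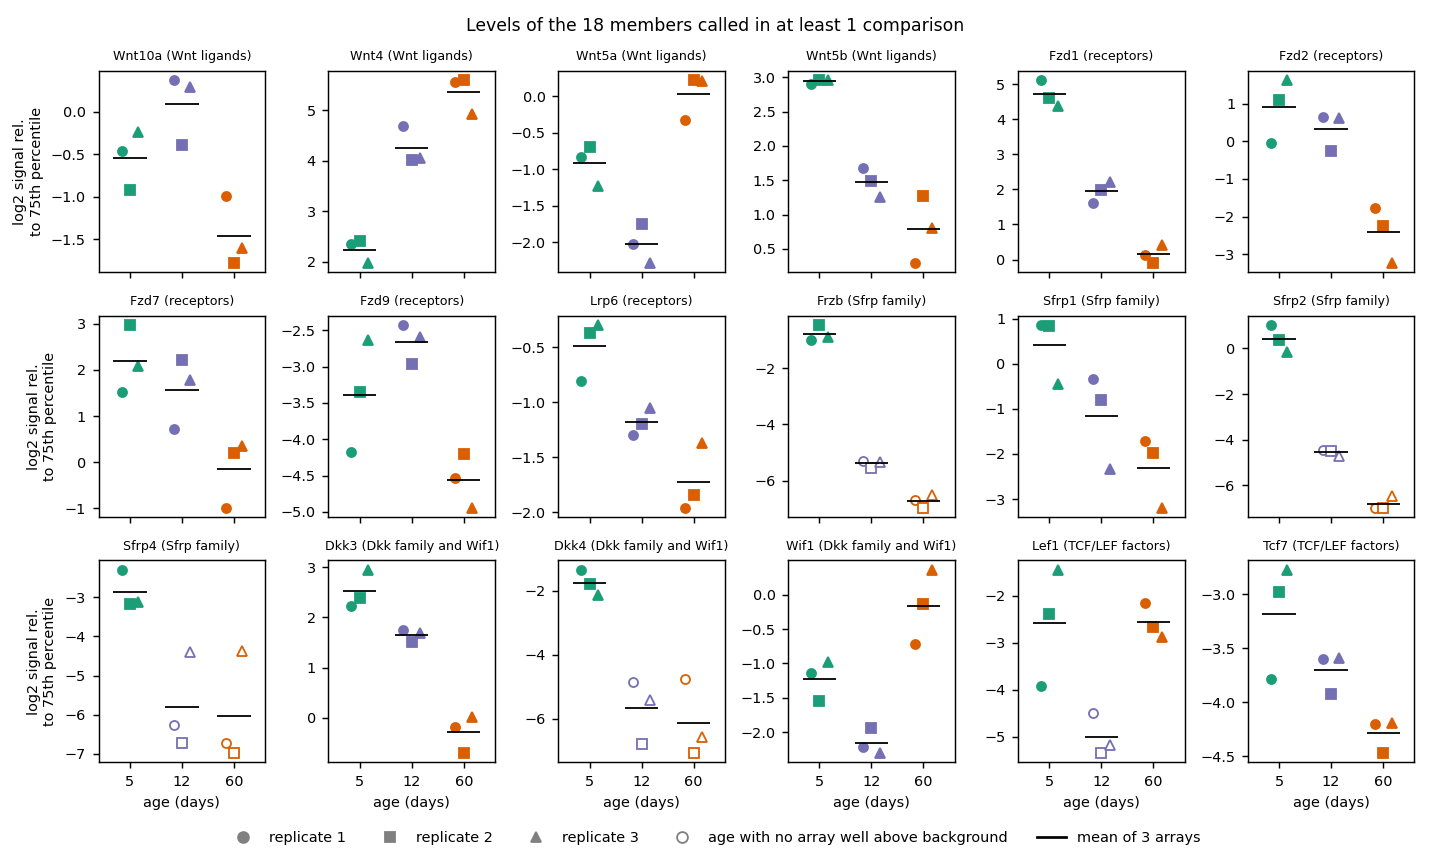
Log2 signal relative to the 75th percentile on each of the 9 arrays for the 18 members called in at least 1 comparison, with age in days on the x axis, symbols for replicates and a bar for the mean of the 3 arrays. Open symbols mark ages at which no array was well above background. Wnt4 climbs from age to age, Wnt5a, Wif1 and Lef1 are lowest at 12 days, and Sfrp2, Sfrp4, Frzb and Dkk4 are measured only at 5 days.

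At 60 against 5 days 4 of the 8 tested receptors fell and 0 rose, beside 18.1% of all genes falling and 17.3% rising. At 60 against 12 days 4 fell and 0 rose, with Fzd9 in place of Lrp6, beside 13.1% and 12.2% of all genes, and these 4 calls were lost on the spike-in scale. Fzd1, Fzd2 and Fzd7 are the 3 members of 1 Frizzled subfamily, and each of them fell at 60 days. Fzd1 lay at 5.13, 4.62 and 4.38 at 5 days, at 1.63, 1.98 and 2.22 at 12 days, and at 0.14, -0.11 and 0.42 at 60 days. No arrays of different ages overlapped, and it fell at both steps. The change was -2.77 ± 0.34 at 12 against 5 days (adjusted p = 0.000456), -1.79 ± 0.34 at 60 against 12 days (0.00267) and -4.56 ± 0.34 at 60 against 5 days (3.05e-06), a 23.6-fold lower level at 60 days. The first and the last of these passed in every setting, and the second was lost without replicate 2 (0.0754).

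Fzd2 read -0.03, 1.12 and 1.64 at 5 days, 0.65, -0.26 and 0.62 at 12 days, and -1.76, -2.26 and -3.24 at 60 days. Its 60-day arrays lay clear below the rest, while the 12-day and 5-day arrays overlapped. Fzd2 fell at 60 against 12 days (-2.76 ± 0.52, adjusted p = 0.00277) and at 60 against 5 days (-3.33 ± 0.52, 0.00049), the second in every setting tried. The probe that stood for Fzd7 read 1.53, 2.98 and 2.08 at 5 days, 0.72, 2.22 and 1.78 at 12 days, and -0.996, 0.20 and 0.34 at 60 days. Again the 60-day arrays were below all others and the younger ages overlapped. Fzd7 fell at 60 against 5 days (-2.35 ± 0.53, adjusted p = 0.00541) in every setting. Its fall at 60 against 12 days (-1.73 ± 0.53, adjusted p = 0.0362) was lost when replicate number 2 or 3 was left out, and when 60-day replicate 1 or 2 or 12-day replicate 2 or 3 was (0.061 to 0.152). That probe carries the name Fzd7 in the files of replicate 1 and an expressed sequence tag's accession in those of replicate 3. The probe named Fzd7 in both was never well above background.

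Fzd9, a receptor of another subfamily, was near background. It measured -4.18, -3.35 and -2.64 at 5 days, -2.42, -2.97 and -2.59 at 12 days, and -4.53, -4.21 and -4.95 at 60 days, with 2, 3 and 2 arrays well above background at those ages. It fell at 60 against 12 days (-1.90 ± 0.42, adjusted p = 0.00690), where the arrays did not overlap. The difference of -1.18 ± 0.42 at 60 against 5 days missed the threshold (adjusted p = 0.0508) and passed it with the replicate block (0.0446), and on leaving out replicate number 1 (0.0409) or its 5-day array (0.0138). Lrp6, 1 of the 2 co-receptors, stood at -0.80, -0.37 and -0.30 at 5 days, at -1.30, -1.20 and -1.05 at 12 days, and at -1.96, -1.84 and -1.38 at 60 days. The ages followed each other downward without overlap. It fell at 60 against 5 days (-1.24 ± 0.31, adjusted p = 0.0102), a call that needed replicate number 2 (0.153 without it) and was lost when its probes were averaged (0.560), since the dimmer Lrp6 probe differed by 0.48 ± 0.66. Fzd3, Fzd5 and Lrp5 were called in no comparison, with log2 differences from -0.24 to 1.44. Fzd5 passed at 60 against 5 days on leaving out replicate number 1 (0.0489) or its 60-day array (0.0157), and Lrp5 on leaving out 5-day replicate 3 (0.0296).

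All 5 secreted Frizzled-related genes were tested. Of these Sfrp2, Sfrp4 and Frzb passed the filter through their 5-day arrays alone and so could only be lower later, and no count over the family is drawn on. Sfrp2, an inhibitor made by many mesenchymal cells, measured 1.04, 0.35 and -0.17 at 5 days, -4.45, -4.49 and -4.70 at 12 days, and -7.00, -7.00 and -6.47 at 60 days. It was well above background on all 5-day arrays and on no later one. It was at least 21.6-fold lower at 12 than at 5 days (adjusted p = 3.6e-05) and at least 32.7-fold lower at 60 than at 5 days (5.57e-07), both in every setting that tested it. The other 2 Sfrp2 probes fell in the same comparisons. They were at least 4.40-fold and 5.28-fold lower at 60 than at 5 days.

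Frzb, the Frizzled-related protein known from cartilage, behaved much the same. It lay at -0.99, -0.46 and -0.89 at 5 days, at -5.30, -5.53 and -5.33 at 12 days, and at -6.70, -6.97 and -6.51 at 60 days, again with the 5-day arrays alone above background. It was at least 9.56-fold lower at 12 than at 5 days (adjusted p = 2.06e-05) and at least 14.4-fold lower at 60 than at 5 days (5.57e-07). The first was lost with normexp background correction, which used replicates 1 and 3 (0.0867). Sfrp2 (adjusted p = 0.00106) and Frzb (0.00823) also fell at 60 against 12 days, but both ages lay below background there and no size is given. The Frzb call was lost without replicate 1, 2 or 3 (0.0536 to 0.108) and with quantile normalization (0.170), and neither other Sfrp2 probe was called in that comparison.

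Sfrp4, known for its part in phosphate handling and bone, read -2.30, -3.19 and -3.12 at 5 days, -6.26, -6.72 and -4.41 at 12 days, and -6.73, -6.98 and -4.38 at 60 days. Only the 5-day arrays were well above background, and replicate 3 was the highest at both later ages. It was at least 2.25-fold lower at 12 than at 5 days (adjusted p = 0.0255) and at least 3.38-fold lower at 60 than at 5 days (0.00652). The first call was lost when replicate number 1 or 2, or any single 5-day array, or 12-day replicate 1 or 2 was left out (0.0533 to 0.263), and the second without replicate 1 (0.126) or 2 (0.0526). A second Sfrp4 probe gave tighter values of -2.53, -2.70 and -2.33 at 5 days, -6.36, -6.60 and -5.60 at 12 days, and -6.84, -6.94 and -6.49 at 60 days. It fell in the same comparisons (adjusted p = 0.000133 and 6.72e-06 over all probes) and was at least 2.85-fold lower at 12 days and 4.30-fold lower at 60 days, each against 5 days. The remaining Sfrp4 probe was never well above background.

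Sfrp1, an inhibitor widely made by stromal cells, declined more evenly and stayed above background at all ages. Its levels were 0.86, 0.83 and -0.45 at 5 days, -0.34, -0.81 and -2.34 at 12 days, and -1.72, -1.98 and -3.20 at 60 days. Replicate 3 was the lowest at each age, and arrays of neighbouring ages overlapped. Sfrp1 fell at 60 against 5 days (-2.72 ± 0.60, adjusted p = 0.00459), a call that needed replicate number 2 (0.0518 without it). With the replicate block Sfrp1 also passed at 12 against 5 days (-1.58, adjusted p = 0.130 without the block and 0.00412 with it) and at 60 against 12 days (-1.14, 0.201 without and 0.0115 with it). Sfrp5 was called in no comparison, at -0.27 ± 0.60, -0.76 ± 0.60 and -1.03 ± 0.60 in the order used above. Markers of several cell types fell over the same ages as the Frizzled-related genes and Fzd1. Beside the peritubular and fibroblast genes, 3 of 7 Leydig, 6 of 9 macrophage, 6 of 8 duct epithelium and 1 of 5 endothelium markers fell at 12 against 5 days. There 1, 0, 0 and 0 of them rose, in the same order. At 60 against 5 days 4, 5, 5 and 3 of them fell and 1, 2, 0 and 1 rose, in the same order. Over all genes 6.3% fell and 6.15% rose in the first of these comparisons, and 18.1% fell and 17.3% rose in the second. The log2 of the summed Leydig signal lay within 4.22 and 4.98 at 5 days, 2.50 and 3.26 at 12 days, and 3.51 and 3.94 at 60 days, with no gene lacking an array well above background. That of the endothelium list lay within 2.37 and 3.14, 3.09 and 3.89, and 0.24 and 1.81 at those ages, with 0, 0 and 1 of 5 genes lacking one. The part of these cells in the falls was not tested.

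The Dickkopf genes and Wif1 split. Dkk3, a divergent member of its family, lay at 2.23, 2.38 and 2.96 at 5 days, at 1.74, 1.504 and 1.69 at 12 days, and at -0.18, -0.71 and 0.00 at 60 days. No arrays of different ages overlapped. Dkk3 fell at 60 against 12 days (-1.94 ± 0.34, adjusted p = 0.0016) and at 60 against 5 days (-2.82 ± 0.34, 7.13e-05), the second in every setting. Dkk4, an antagonist that binds the co-receptors, read -1.34, -1.78 and -2.13 at 5 days, -4.86, -6.77 and -5.40 at 12 days, and -4.76, -7.07 and -6.57 at 60 days. It was above background at 5 days alone and so could only be lower later. Its level was at least 4.88-fold lower at 12 than at 5 days (adjusted p = 0.00227, lost with normexp at 0.392) and at least 7.36-fold lower at 60 than at 5 days (0.000281, kept in every setting that tested it). A second Dkk4 probe was never well above background.

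Wif1, which binds Wnt proteins directly, followed the course of Wnt5a. It measured -1.14, -1.55 and -0.98 at 5 days, -2.22, -1.93 and -2.30 at 12 days, and -0.71, -0.14 and 0.36 at 60 days. The 60-day arrays lay above all others and the 12-day arrays below all others. It rose at 60 against 12 days (1.99 ± 0.36, adjusted p = 0.002), a call lost with normexp alone (0.0803). The rise at 60 against 5 days (1.06 ± 0.36, adjusted p = 0.0388) was lost when replicate number 2 or 3, or any single 5-day array, or 12-day replicate 1, or 60-day replicate 2 or 3 was left out (0.0503 to 0.281). At 12 against 5 days it differed by -0.92 ± 0.36 (adjusted p = 0.136).

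In the main fit the nuclear factor Lef1 was the only member to fall and then rise. Its levels were -3.91, -2.39 and -1.45 at 5 days, -4.50, -5.34 and -5.17 at 12 days, and -2.16, -2.66 and -2.88 at 60 days. No 12-day array was well above background, against all 3 at 5 and all 3 at 60 days, and the 5-day arrays were widely spread. Lef1 was at least 2.73-fold lower at 12 than at 5 days (adjusted p = 0.0161) and at least 2.77-fold higher at 60 than at 12 days (0.00828), while 60 and 5 days differed by 0.02 ± 0.56 (0.984). The fall was lost when replicate number 2 or 3, or 5-day replicate 2, or 12-day replicate 2 or 3 was left out (0.0533 to 0.203), and the rise without replicate 2 (0.101). Of 9 macrophage markers 6 fell at 12 against 5 days and 4 rose at 60 against 12 days. Of 8 duct epithelium markers 6 fell in the first comparison, and 3 rose and 2 fell in the second. Over all genes 6.3% fell in the first, and 12.2% rose and 13.1% fell in the second. The log2 of the summed macrophage signal lay within 2.10 and 3.14 at 5 days, 0.35 and 0.63 at 12 days, and 1.40 and 1.45 at 60 days, with 1, 1 and 0 of 9 genes not well above background. The duct epithelium sum lay within 5.76 and 6.69 at 5 days, 3.76 and 3.93 at 12 days, and 3.20 and 5.56 at 60 days, with 0, 2 and 0 of 8 not well above background. The part of these cells in the courses of Lef1, Wnt5a and Wif1 was not tested.

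Tcf7, the factor known from T cells, stood at -3.79, -2.98 and -2.77 at 5 days, at -3.60, -3.92 and -3.59 at 12 days, and at -4.20, -4.47 and -4.19 at 60 days. The 60-day arrays were below all others, on a probe close to background. It fell at 60 against 5 days (-1.10 ± 0.34, adjusted p = 0.0284), which did not pass when either replicate number 2 or 3, or 1 of their 5- and 60-day arrays, was left out (0.0595 to 0.258).

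The cytoplasmic relays were not called, and the ages overlapped for Axin1 and Dvl1. Axin1, the scaffold of the complex that degrades β-catenin, read 2.72, 3.13 and 3.85 at 5 days, 3.39, 3.29 and 3.73 at 12 days, and 3.38, 4.06 and 4.09 at 60 days. It differed by 0.24 ± 0.38, 0.37 ± 0.38 and 0.61 ± 0.38 at 12 against 5, 60 against 12 and 60 against 5 days (adjusted p = 0.800, 0.524 and 0.242). Dvl1 differed by -0.17 ± 0.31, 0.08 ± 0.31 and -0.09 ± 0.31 (0.825, 0.886 and 0.846). Dvl3 differed by 0.50 ± 0.42, -1.07 ± 0.42 and -0.57 ± 0.42 (0.549, 0.0851 and 0.322), and its 60 against 12 day value passed with the replicate block (0.0439) and with 60-day replicate 2 left out (0.0430). Rspo1, the only R-spondin among the names, differed by 0.05 ± 0.42, -0.35 ± 0.42 and -0.30 ± 0.42 (0.973, 0.605 and 0.623). A missed threshold does not show that these levels were equal.

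Probes of the same gene disagreed for Wnt2 and Wnt7a, as they did for Wnt5b and Lrp6 above. The Wnt2 probe that stood for the gene measured -2.56, -3.68 and -4.13 at 5 days, -3.41, -3.74 and -4.90 at 12 days, and -2.87, -2.60 and -3.69 at 60 days. It overlapped between ages and was not called at 60 against 12 days (0.96 ± 0.53, adjusted p = 0.215 over genes, and 0.0462 with the replicate block). The second Wnt2 probe, the last sequence shown above, lies downstream of it on the minus strand. It measured -6.34, -6.13 and -6.28 at 5 days, -5.79, -6.80 and -5.32 at 12 days, and -1.95, -0.84 and -1.26 at 60 days. It was above background on the 60-day arrays alone, passed the filter through them and so could only be higher there. At 60 days it was at least 6.42-fold higher than at 12 days (adjusted p = 3.72e-05 over all probes) and at least 6.37-fold higher than at 5 days (1.06e-05). Averaging both probes gave Wnt2 a rise of 2.79 at 60 against 12 days (0.000253) and of 2.65 at 60 against 5 days (0.000183). These averages include the second probe and share its limit. The spermatid, spermatocyte, spermatogonium and Sertoli lists all had their highest median and summed levels on the 60-day arrays as well. Yet of 7 spermatogonium markers 3 rose and 0 fell at 60 against 12 days, with a median log2 change of -0.02. Over all genes 12.2% rose there. The log2 summed signal at 5, 12 and 60 days lay within 1.96 and 2.64, 2.25 and 2.74, and 4.78 and 5.50 for spermatids. For spermatocytes it lay within -0.54 and -0.31, 3.89 and 4.34, and 6.73 and 7.65. For spermatogonia it lay within 3.26 and 3.61, 4.26 and 4.97, and 6.06 and 6.47, and for Sertoli cells within 5.49 and 5.61, 7.72 and 7.88, and 8.31 and 8.43. Their part in the signal of this probe was not tested.

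A second Wnt7a probe was at least 1.28-fold lower at 60 than at 12 days (adjusted p = 0.00277 over all probes), with 2 of 3 arrays well above background at 12 days and none at 60 or 5 days. It passed the filter through the 12-day arrays alone and so could only be lower than there at 60 days. It was also called lower at 60 against 5 days (0.0363), where neither age was above background. The brighter Wnt7a probe differed by -0.69 ± 0.44 and -0.54 ± 0.44 in those comparisons (adjusted p = 0.293 and 0.377) and was not called. Averaging the probes gave Wnt7a a fall of -1.53 at 60 against 12 days (0.0122).

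**Figure D4:**
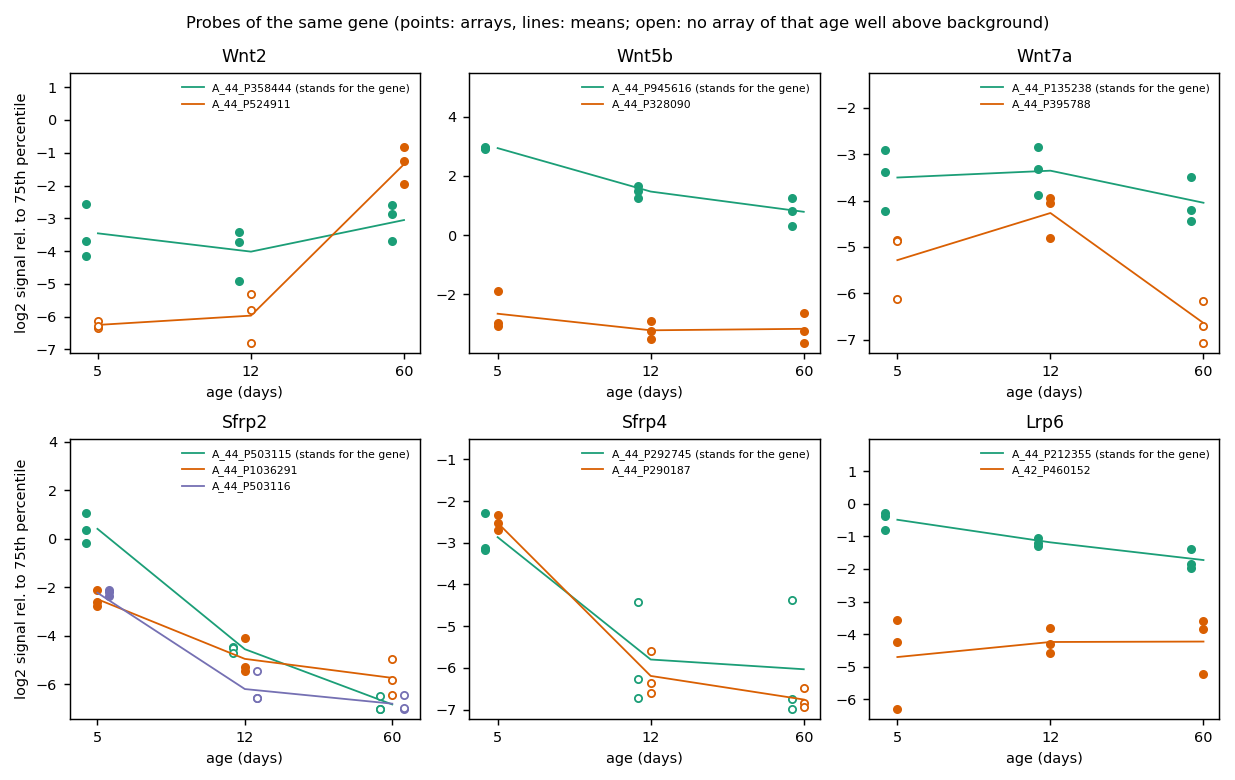
Log2 signal relative to the 75th percentile for the tested probes of 6 members, with age in days on the x axis, points for arrays and lines joining the means of the 3 arrays. Open points mark ages with no array well above background. The Wnt2 probe that stands for the gene is the brighter at 5 and 12 days and the dimmer at 60 days. All Sfrp2 and Sfrp4 probes shown drop after 5 days. At 60 against 5 days the brighter Wnt5b and Lrp6 probes fell, and the dimmer ones were not called lower.

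The remaining 13 members did not pass the filter and were not tested. Dkk1, Fzd6, Wnt1, Wnt10b, Wnt3a, Wnt7b, Wnt8a, Wnt9a and Wnt9b were well above background on none of the 9 arrays. Axin2, whose transcription is a widely used readout of β-catenin signalling, was so on 3 arrays, 1 at each age. Wnt3 was so on 2 arrays, and Fzd4 and Wnt8b on 1 each. For these the arrays give only that the signal was near or below background with these probes.

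Other genes of the pathway were counted in the same way. Of 79 listed genes outside the 44 members, 55 were tested. At 60 against 5 days 7 rose and 22 fell, beside 17.3% and 18.1% of all genes. At 60 against 12 days 2 rose and 20 fell, beside 12.2% and 13.1%, and at 12 against 5 days 2 rose and 8 fell, beside 6.15% and 6.3%. Their median log2 change was -0.63, -0.65 and 0.04 in that order, against -0.09, -0.16 and 0.05 over all genes. On the spike-in scale the counts were 1 rising and 17 falling, 3 rising and 3 falling, and 0 rising and 9 falling. These pathway lists were chosen with earlier results of these data known, so counts over them describe the listed genes and support nothing further.

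Genes of Wnt secretion and of the cell surface carried the largest changes at 60 against 5 days. Porcn, the enzyme that adds the lipid to Wnt proteins, fell by 4.25 on the log2 scale (SE 0.38, adjusted p = 9.9e-06), and the glypican Gpc3 fell by 6.97 (SE 0.37, 5.73e-07), whereas Gpc4 rose by 1.64 (SE 0.48, 0.0214). Among 9 co-receptor and receptor turnover genes 6 fell and 1 rose, beside 18.1% and 17.3% of all genes. Sostdc1, a secreted antagonist, was at least 75.9-fold lower at 60 than at 5 days (7.42e-06). Cthrc1, a secreted protein that favours the planar polarity branch, fell by 6.72 (SE 0.32, 4.5e-07). Ptk7, a receptor-like protein of that branch, fell by 4.46 (SE 0.34, 3.96e-06), and the Wnt5a receptor Ror1 was at least 3.86-fold lower (1.76e-05). Of these calls only that of Gpc4 was lost on leaving out arrays, namely any replicate number, 5-day replicate 1 or 3, or 60-day replicate 2 or 3 (0.0509 to 0.0873), and it was lost on the spike-in scale (0.373). Ror1 was lost with normexp (0.0604).

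Of 22 genes of β-catenin turnover and its cofactors, 3 rose and 7 fell at 60 against 5 days, beside 17.3% and 18.1% of all genes. Dact1, a Dishevelled-binding protein, fell by 3.42 (SE 0.35, adjusted p = 2.57e-05), the corepressor Tle2 fell by 3.11 (SE 0.44, 0.000257), the corepressor Ctbp2 fell by 3.03 (SE 0.55, 0.00126), and Tnks, an enzyme that marks Axin for removal, was at least 1.502-fold higher (0.00133). Of 10 genes of the planar polarity and calcium branches 2 rose and 2 fell, beside the same 17.3% and 18.1% of all genes. Daam2, a formin that binds Dishevelled, rose by 3.28 (SE 0.38, 6.36e-05), Prickle1 fell by 2.30 (SE 0.31, 0.000157), and Prickle2 was at least 2.68-fold lower (0.00112). The calcium-dependent kinase Camk2d was called higher (0.0169), yet its difference was -0.31 with normexp (0.603), and the call was lost on the spike-in scale (0.414) and with quantile normalization (0.0618). Camk2d also lost its call when replicate number 1 or 3, or the 5-day array of either, was left out (0.0634 to 0.159). Normexp likewise ended the calls of Tnks (0.684) and Prickle2 (0.363), and the spike-in scale that of Tnks (0.0831).

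Of 10 known targets of β-catenin signalling 0 rose and 5 fell at 60 against 5 days, beside 17.3% and 18.1% of all genes. Twist1, a factor of mesenchymal cells, fell by 3.98 (SE 0.29, adjusted p = 2.59e-06), and the matricellular protein gene Ccn4 fell by 3.45 (SE 0.50, 0.000284). Cyclin D1 (Ccnd1) fell by 1.96 (SE 0.68, 0.0435), lost when replicate number 2, any of its arrays, 60-day replicate 1 or 5-day replicate 3 was left out (0.0530 to 0.334). The Ccnd1 call was also lost with normexp (0.174), quantile normalization (0.0648), averaged probes (0.0845) and no filter (0.0579). The Dishevelled-binding feedback gene Nkd2 fell by 1.66 (SE 0.42, 0.0102), lost without replicate 3 (0.0880), on the spike-in scale (0.0947) and with normexp, where the difference was -0.71 (0.181). At 60 against 12 days 6 of the 10 fell and 0 rose, beside 13.1% and 12.2% of all genes. The 2 pathway genes that rose at 12 against 5 days, Myc and Celsr2, lay at -0.07 and -0.10 on the spike-in scale.

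The promoters were searched for the letters CTTTGAA and CTTTGAT, which TCF/LEF factors bind, on both strands from 250 bases before to 50 after the start, in RefSeq sequences of the GRCr8 build. A match was held by 2373 of all 27457 promoters (8.64%) and by 5 of the 31 members with a sequence there, namely Axin2, Dkk1, Fzd7, Tcf7 and Wnt8a. Of the 11 called members with a sequence, 2 held one, Fzd7 and Tcf7, and these promoters are shown because both genes fell at 60 against 5 days. Capitals mark the match, which begins 1 base before the start in Fzd7 and 4 bases before it in Tcf7.
Fzd7, chr9:68425288-68425587, plus strand: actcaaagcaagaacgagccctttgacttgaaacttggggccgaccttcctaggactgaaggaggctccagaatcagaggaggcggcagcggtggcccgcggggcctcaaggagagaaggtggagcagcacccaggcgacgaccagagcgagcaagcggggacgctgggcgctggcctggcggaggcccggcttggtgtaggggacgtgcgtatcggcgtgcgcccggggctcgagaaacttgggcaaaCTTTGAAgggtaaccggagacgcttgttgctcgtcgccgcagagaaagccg
Tcf7, chr10:36954230-36954529, minus strand: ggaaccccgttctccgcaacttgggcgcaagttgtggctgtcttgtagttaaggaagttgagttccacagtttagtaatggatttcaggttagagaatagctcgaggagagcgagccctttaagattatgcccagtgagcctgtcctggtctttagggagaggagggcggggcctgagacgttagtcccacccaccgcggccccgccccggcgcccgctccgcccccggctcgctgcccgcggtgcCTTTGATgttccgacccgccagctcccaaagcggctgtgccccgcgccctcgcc
In Axin2 the matches begin at -232 and -132 from the start. A match describes the letters and not binding.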

How the data were processed

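Total RNA of 9 cultures was labelled with Cy3 and hybridised to one-colour Agilent rat 4x44k arrays, per the labels. The deposited scanner files hold the processed signal, an intensity after background subtraction, per the file headers. Replicate 1 was read with Feature Extraction 9.5.3.1 on a G2505B scanner, replicates 2 and 3 with version 10.5.1.1 on a G2505C scanner, per the file headers. The authors' deposited log2 table equals the log2 processed signal minus the array's 75th percentile within 0.01 for 99.68% to 99.79% of probes, with column medians of -3.48 to -3.18, and was an alternative here.

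From 41012 probes, 271 with a quality failure were left out. The log2 signal minus the array's 75th percentile (150.1 to 437.5 intensity units) was used. Between 49.1% and 63.0% of probes per array were well above background, and the number of arrays limits the precision. Probes passing the filter numbered 26589, giving 22438 genes. A mean per age was fitted with limma 3.58.1 in R 4.3.3 (2-sided moderated tests, Benjamini-Hochberg adjustment over all genes). The fit was also run on simulated data with independent noise on each array. That run took in neither the likeness of arrays that share a slide nor signals near background. Other steps ran in Python 3.11.15 (numpy 2.4.6, pandas 2.3.3, matplotlib 3.10.9). The members, roles, marker lists and pathway lists were chosen with earlier results of these data known. Called members are given array by array, uncalled ones by range, with values for roles of up to 3 tested members, and untested ones by name, and at most 4 called genes per other list are named, those of the largest change.

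A replicate number marks a slide. After subtracting each age's mean, arrays sharing a number had correlations of 0.18 to 0.60 and arrays with unlike numbers 0.09 at most, which makes the numbers a pairing. The main fit left this pairing out, and the replicate block, which takes it in, was run as an alternative. Alternatives were other scalings (array median, quantile, spike-in controls), normexp background correction (offset 50, replicates 1 and 3, since those files hold a mean signal), the deposited values, other filters, other rules for probes, the replicate block, and leaving out arrays or replicate numbers.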

Additional observations from a re-analysis of the deposited data

How the results depend on the processing

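Of 35 calls of members in the 3 comparisons, 12 passed in every setting that tested them. Among these are falls of Sfrp2, Frzb and Dkk4, which passed the filter through their 5-day arrays alone and so could only be lower later. They were not tested where all 9 arrays had to be well above background, and their place in this count supports nothing further. Outside the counts, member values were on the same side of the threshold 1963 times, below it where they had passed 109 times, above it where they had not 25 times, and no called value turned its direction. With normexp the members called numbered 4 at 12 against 5 days, 5 at 60 against 12 days and 9 at 60 against 5 days, and 8 passed the F-test. With probes well above background on all 9 arrays, 17 members were tested, 4 were called at 12 against 5 days and 11 passed the F-test. The spike-in scale left 3 calls at 60 against 12 days. Leaving out arrays or a replicate number gave 4 to 9, 6 to 12 and 9 to 17 calls in the 3 comparisons and 9 to 17 by the F-test, the lowest each time without replicate 2. With the replicate block the calls numbered 10, 15 and 17, with 18 by the F-test, and beyond the calls it added beside the values above the block changed no other call. Over all genes, normexp called 787, 2284 and 3873 and leaving out replicate 2 called 853, 2776 and 4909, against 2793, 5694 and 7933. Of all genes called, the share that rose moved with the spike-in scale to 90 of 2284, 2614 of 2994 and 1626 of 4077. For other pathway genes, chosen after seeing the data, normexp gave 6, 12 and 18 calls, the spike-in scale 6 at 60 against 12 days and 18 at 60 against 5 days, and leaving out arrays or a replicate number 4 to 11 and 12 to 22 in the first 2 comparisons. The causes were not tested. Normexp and leaving out replicate 2 also rest on fewer arrays. Genes near background have bounds only, which limits Sfrp2, Sfrp4, Frzb, Dkk4 and Lef1.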
